A study of Mus musculus with 28 samples.

Results

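The protocadherins, a family of cell-surface proteins of the cadherin superfamily, were followed in the hippocampus of cbp+/- mice, which carry 1 functional copy of the gene for CREB-binding protein, and of their wild-type littermates. Members were the genes whose symbol begins with Pcdh and that had a row of their own on the array, and each gene was taken at its row with the highest mean. This gave 34 genes of the 19938 genes measured. They comprised 22 clustered genes, which were Pcdhb1 to Pcdhb22, and 12 non-clustered genes, which were Pcdh1, Pcdh7, Pcdh8, Pcdh9, Pcdh10, Pcdh11x, Pcdh12, Pcdh15, Pcdh17, Pcdh18, Pcdh19 and Pcdh20. No Pcdhg gene was named on any row, and 14 Pcdha symbols shared 1 row and so had no row each. All mice were C57/DBA F1 hybrid females aged 3 months, and each of the 28 arrays held hippocampal RNA pooled from 3 to 4 mice. In each genotype 5 arrays were standard cage controls without TSA, of which 2 came from naive mice and 3 from mice given the DMSO/saline vehicle. A further 3 arrays per genotype came from caged mice given trichostatin A (TSA), an inhibitor of histone deacetylases, at 2.4 mg/kg and killed 75 min later. The last 2 groups of each genotype, with 3 arrays each, had spent 1 h in a box with tubing and toys (novelty) that began 15 min after vehicle or TSA.

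The clustered protocadherins are encoded by the Pcdha, Pcdhb and Pcdhg gene clusters, which lie next to each other on mouse chromosome 18. In the Pcdhb cluster each gene is a single exon with its own promoter, and a neuron transcribes only some of the genes, so that neurons differ in the set of isoforms they display. Promoter choice in the clusters is known to involve the insulator protein CTCF and cohesin, which bring promoters to distant enhancers. The proteins bind like isoforms on other membranes and serve neurite self-recognition and synapse formation. The non-clustered protocadherins are scattered over the genome and act mostly in cell adhesion and axon guidance. CREB-binding protein, encoded by Crebbp, is a histone acetyltransferase and a coactivator of CREB, a factor that drives activity-dependent genes. In bulk hippocampus fewer cells that transcribe a gene and less RNA per cell cannot be told apart.

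Values are log2 array values throughout, and a difference of 1 is a doubling of the array signal. They ran from 2.11 to 14.02 over all rows, and array medians lay between 5.46 and 5.63. Crebbp was not lower in the mutants, with 8.97 to 9.77 and a median of 9.42 on the cbp+/- arrays against 8.68 to 9.70 and a median of 9.32 on the wild-type arrays (14 each). Whether the probes of that row lie in the altered part of the gene is not known, so this value does not check the genotype labels. Hippocampal neuron markers were present, 9 with a row each, among them Prox1 of the dentate gyrus (median 8.26) and Neurod6 of pyramidal cells (median 8.86). Lists of markers of 9 cell types or regions, hippocampal neurons included, averaged between -0.04 and 0.04 from their mean over all arrays in either genotype. A deviation in 1 genotype is mirrored in the other, so the difference between genotypes is larger than either value. For astrocytes these were -0.04 in cbp+/- mice and 0.04 in wild type. The remaining list, choroid plexus, averaged 0.07 in cbp+/- mice and -0.07 in wild type. Markers of choroid plexus, an epithelium next to the hippocampus, stood 1.52, 1.11 and 1.42 above their mean on replicate 3 of the cbp+/- cage controls, replicate 1 of the cbp+/- caged TSA group and replicate 1 of the wild-type novelty TSA group. Same-numbered arrays of the genotypes deviated together, with correlations of 0.44 to 0.70 in all 14 pairs. The vehicle controls 3, 4 and 5 were joined to replicates 1, 2 and 3 of the other groups as array sets. With the naive arrays as a further set, a block of these sets took the median residual SD of all genes to 0.13 from 0.18. Differences were therefore also fitted with these array sets as a block, or with the 14 pairs as a block, and such values are given where they change a call or move a value strongly. The labels number the arrays and do not say what arrays of a number share. The correlations compare genotypes within 1 condition. They do not show that vehicle control 3 belongs with replicate 1 of the other groups.

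Most Pcdhb genes had higher means in cbp+/- hippocampus, by a small amount each, and none passed the test without a block. Pcdhb3 and Pcdhb2 passed only with a block, and the blocks were chosen from the values of these same arrays. Averaged over the 4 conditions, 21 of the 22 genes lay above 0, with a median difference of 0.16 between cbp+/- and wild type. Among all genes 46.1% lay above 0, with a median of -0.01. The 12 non-clustered genes lay on both sides, with 3 above 0 and a median of -0.03. No protocadherin passed an adjusted p of 0.05 in limma's test without a block, and 0% of all genes did. At an unadjusted p under 0.05, 8 Pcdhb genes were higher, compared with 1.08% of all genes, and 0 were lower, compared with 1.52%. Pcdhb3 and Pcdhb2 were higher past the threshold with the array set block, 2 of 22 clustered genes against 0.16% of all genes. The same genes passed with the pair block, where 0.0602% of all genes were called higher. Under the array set block 15 Pcdhb genes were higher at an unadjusted p under 0.05, against 5.3% of all genes. These were Pcdhb1 to Pcdhb11 and Pcdhb17 to Pcdhb20, and the same 15 had a p under 0.05 with the pair block, against 4.42% of all genes. Beside these, Pcdhb12, Pcdhb13, Pcdhb14, Pcdhb15, Pcdhb16 and Pcdhb21 differed by 0.05 to 0.11. If only the vehicle controls are kept and the naive arrays left out, the Pcdhb median over the 4 conditions was 0.19 with 21 of 22 above 0.

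**Figure D1:**
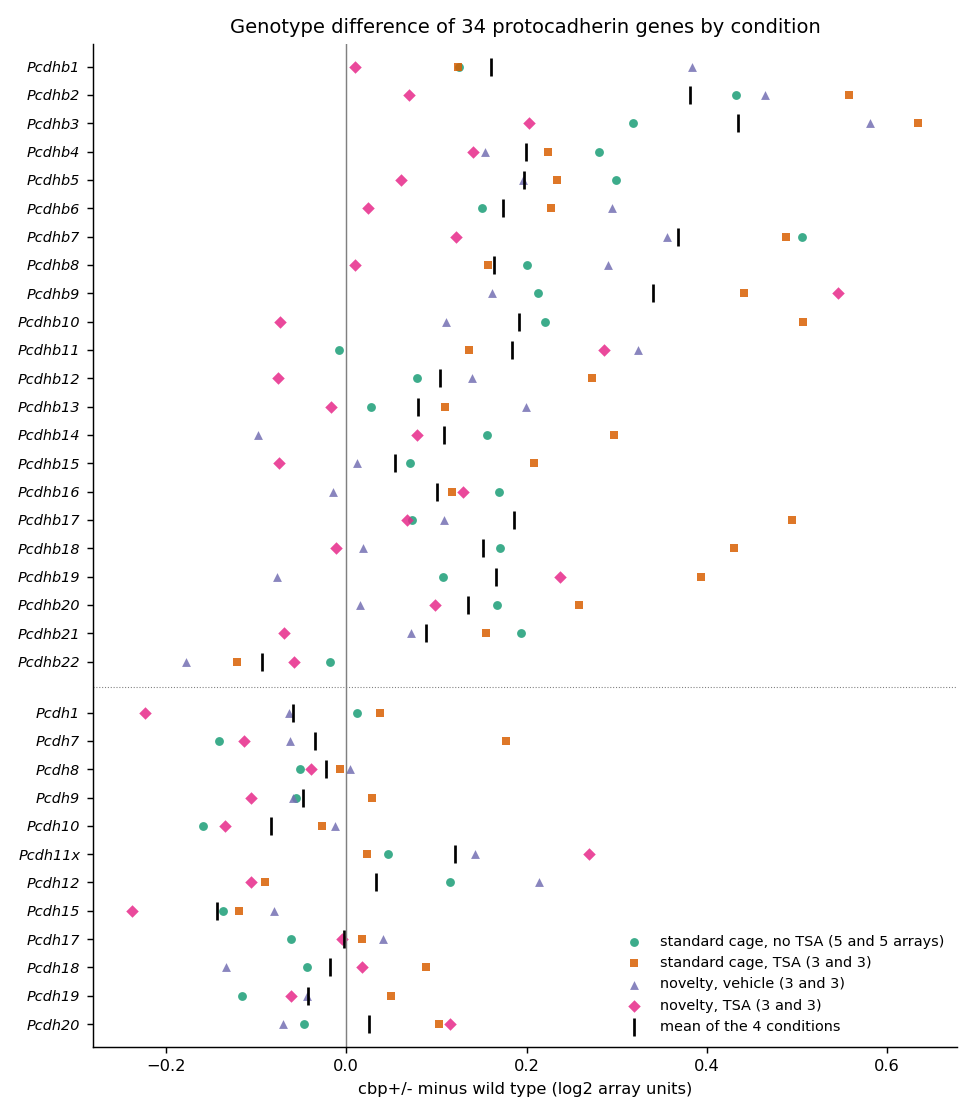
Difference between cbp+/- and wild-type arrays (log2 array units) for each of the 34 protocadherin genes, with 1 symbol per condition and a bar for the mean of the 4 conditions. The Pcdhb genes (upper block) lie mostly right of 0, with Pcdhb22 left of it, and the non-clustered genes (lower block) lie around 0.

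Pcdhb3 showed the largest difference of the family over the 4 conditions, 0.43 ± 0.08 with the array set block (SE, adjusted p = 0.00426) or 1.35-fold. In cage controls it read 7.51, 7.41, 6.56, 6.87 and 7.17 in cbp+/- mice, against 7.25, 7.14, 6.41, 6.44 and 6.68 in wild-type mice. Caged TSA mice followed, where the cbp+/- arrays read 6.54, 7.18 and 7.24 and the wild-type arrays 6.32, 5.83 and 6.91. The groups overlapped in both settings, although each cbp+/- array exceeded the wild-type array of its own number. After novelty with vehicle it read 7.04, 6.74 and 7.21 in cbp+/- mice and 6.41, 5.95 and 6.88 in wild type. After novelty with TSA it read 6.86, 6.90 and 6.99 in cbp+/- mice and 6.74, 6.36 and 7.05 in wild type. The last wild-type value was the only one above that of the same-numbered mutant array. Without a block the same difference had an SE of 0.14 and an adjusted p of 1, and with the pair block the adjusted p was 0.0148. With the array set block and any 1 array left out the adjusted p of Pcdhb3 lay between 0.00083 and 0.0123, while with all 8 arrays of set 3 left out the difference was 0.27 (adjusted p = 0.0662).

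Pcdhb2 differed by 0.38 ± 0.08 with the array set block (SE, adjusted p = 0.0291), a 1.30-fold difference. The cage controls read 7.34, 7.03, 7.14, 6.99 and 7.04 in cbp+/- mice, against 7.06, 6.88, 6.55, 6.70 and 6.18 in wild type. Under TSA in the cage the values were 6.99, 7.28 and 7.10 in cbp+/- mice and 6.53, 6.45 and 6.71 in wild type, with no overlap. Novelty with vehicle gave 7.35, 6.79 and 6.99 in cbp+/- mice and 6.79, 6.29 and 6.65 in wild type. Here too every mutant array stood above every wild-type array, although the lowest mutant and the highest wild-type array are equal at this rounding. After novelty with TSA replicates 1 and 2 of the mutants were at 7.09 and 7.0 and replicate 3 at 6.18, while wild type had 6.89, 6.40 and 6.77. That mutant array and replicate 5 of the wild-type controls were the lowest of the 28 for Pcdhb2. The adjusted p of Pcdhb2 was 0.924 without a block and 0.0467 with the pair block. With the array set block and any 1 array left out it lay between 0.00262 and 0.073, so single arrays decided this call. With all arrays of set 2 or of set 3 left out the difference was 0.36 or 0.29 (adjusted p = 0.121 and 0.242). Without set 1 or set 4 Pcdhb2 still passed (adjusted p = 0.0353 and 0.0375).

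Pcdhb1, the first gene of the cluster, had little spread between arrays and read low, with a mean of 4.22 at the 20.8 percentile of genes, below every array median. It read 4.34, 4.36, 4.33, 4.40 and 4.33 in cbp+/- cage controls, against 4.14, 4.18, 4.26, 4.32 and 4.24 in wild-type controls, so the groups did not overlap. In novelty with vehicle the values were 4.58, 4.32 and 4.45 in cbp+/- mice and 3.93, 4.05 and 4.22 in wild type, again without overlap. Caged TSA arrays overlapped, with 4.21, 4.04 and 4.21 in cbp+/- mice and 4.18, 4.07 and 3.84 in wild type, as did novelty TSA arrays, with 4.26, 4.23 and 4.15 in cbp+/- mice and 4.22, 4.17 and 4.22 in wild type. The difference over the 4 conditions was 0.16 ± 0.04, with an adjusted p of 0.924 without a block and 0.0763 with the array set block.

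**Figure D2:**
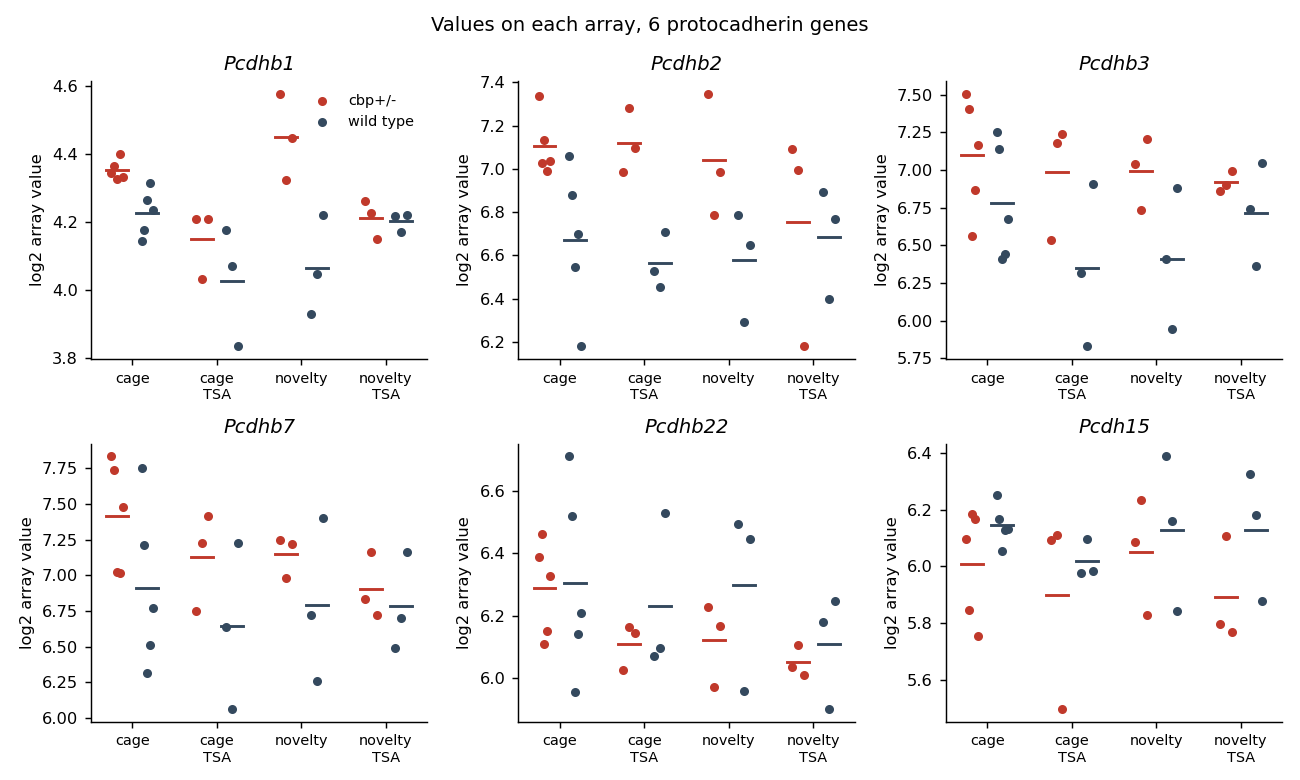
Log2 value on each array for 6 protocadherin genes, with cbp+/- arrays (red) left of wild-type arrays (dark) in each condition and a line at each group mean. Pcdhb1, Pcdhb2, Pcdhb3 and Pcdhb7 are higher on average in cbp+/- mice in each condition, and Pcdhb22 and Pcdh15 are lower.

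The other Pcdhb genes differed by less or varied more. Pcdhb7 and Pcdhb9 stood 0.37 ± 0.10 and 0.34 ± 0.09 higher in cbp+/- mice with the array set block, and missed the threshold with adjusted p of 0.0764 and 0.0969. Pcdhb4 and Pcdhb5 differed by 0.20 ± 0.05 and 0.20 ± 0.06, with adjusted p of 0.0764 and 0.124. Both were nevertheless higher in the mutant array of 13 of the 14 same-numbered pairs. Pcdhb22, the last gene of the cluster, was the only Pcdhb gene below 0, at -0.09 ± 0.06. Pcdhb genes resemble each other in sequence, and how far the probes of a row also bind the RNA of a related gene was not tested.

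The genotype difference of the Pcdhb genes was seen to varying degrees in the separate conditions, none of which had a protocadherin past the threshold. In cage controls 20 of 22 Pcdhb genes were above 0, with a median of 0.17, led by Pcdhb7 at 0.51 ± 0.26, Pcdhb2 at 0.43 ± 0.17 and Pcdhb3 at 0.32 ± 0.22 (SE, no block). Pcdhb7 read 7.83, 7.74, 7.02, 7.02 and 7.48 in cbp+/- controls and 7.75, 7.21, 6.32, 6.51 and 6.77 in wild-type controls, with overlap. Only Pcdhb1 had arrays that did not overlap, where 0.211% of all genes were higher in that way. Caged TSA mice had 21 of 22 above 0, with a median of 0.25, led by Pcdhb3 at 0.63 ± 0.29, Pcdhb2 at 0.56 ± 0.21 and Pcdhb10 at 0.51 ± 0.19. Pcdhb10 read 6.35, 6.33 and 6.73 in cbp+/- mice and 5.96, 5.57 and 6.36 in wild type, with overlap. Pcdhb2 alone did not overlap, against 1.49% of all genes. In novelty with vehicle 18 of 22 were above 0, with a median of 0.15, and 4 did not overlap, against 3.15% of all genes. These were Pcdhb2 at 0.46 ± 0.21, Pcdhb1 at 0.38 ± 0.09, Pcdhb11 at 0.32 ± 0.18 and Pcdhb8 at 0.29 ± 0.18. Pcdhb11 read 5.53, 5.62 and 5.92 in cbp+/- mice and 5.30, 5.34 and 5.46 in wild type. Pcdhb8 read 6.45, 6.11 and 6.10 in cbp+/- mice and 6.07, 5.68 and 6.03 in wild type. Pcdhb3 had a larger mean difference, 0.58 ± 0.29, with overlapping arrays.

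In novelty with TSA 15 of 22 genes were above 0, with a median of 0.06, and Pcdhb11 alone had arrays that did not overlap, against 1.62% of all genes. Pcdhb11 read 5.72, 5.66 and 5.54 in cbp+/- mice and 5.36, 5.29 and 5.41 in wild type. Pcdhb9 had the largest mean difference, 0.55 ± 0.41 (SE, no block), with overlapping arrays, followed by Pcdhb11 at 0.29 ± 0.18 and Pcdh11x at 0.27 ± 0.17. The numbers of genes past the test were 0 of 34 protocadherins and 0% of all genes in each of the 4 conditions without a block. At an unadjusted p under 0.05 the Pcdhb genes that were higher numbered 2 in controls, 4 with TSA in the cage, 2 in novelty with vehicle and 0 in novelty with TSA. The shares of all genes higher at that level were 0.572%, 0.537%, 1.21% and 0.421% in the same order. These counts and shares are without a block. With the array set block the Pcdhb genes higher at that level numbered 6, 11, 6 and 1 in the same order. The shares of all genes were then 1.98%, 3.63%, 3.69% and 3.1%. The Pcdhb median of a condition moved widely when 1 array was left out, and the conditions cannot be ranked by it. In controls it ran from 0.09 (without wild-type replicate 3) to 0.26 (without wild-type replicate 1), and in caged TSA mice from 0.14 (without cbp+/- replicate 3) to 0.44 (without wild-type replicate 3). In novelty with vehicle it ran from -0.02 (without cbp+/- replicate 3) to 0.27 (without cbp+/- replicate 2), and in novelty with TSA from 0.01 (without wild-type replicate 2) to 0.21 (without wild-type replicate 3).

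Choroid plexus markers were uneven between the genotypes, with 0 of 11 past the threshold. All 11 measured were above 0 in controls, with a median of 0.35, and in caged TSA mice, with a median of 0.21, while 5 of 11 were above 0 in novelty with vehicle and 1 of 11 in novelty with TSA. Their mean deviation per array ran from -0.35 to 1.52 in cbp+/- mice and from -0.38 to 1.42 in wild type. Without the 3 arrays with raised markers the Pcdhb median was 0.22 in controls, 0.39 in caged TSA mice and 0.01 in novelty with TSA. Over the 4 conditions it was 0.18 without these arrays, against 0.16 with them, while in novelty with TSA the values were 0.01 without and 0.06 with them. The part of these markers in the Pcdhb difference was not tested. In the fit with the array set block and without these arrays 3 Pcdhb genes passed the threshold, which were Pcdhb2, Pcdhb3 and Pcdhb9, where 0.171% of all genes were called higher.

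Taking each cbp+/- array with its same-numbered wild-type array, the Pcdhb median was above 0 in 12 of 14 pairs and the non-clustered median in 5 of 14. Pcdhb2, Pcdhb3, Pcdhb4 and Pcdhb5 were higher in the mutant in 13 of 14 pairs, as were 0.301% of all genes. All 4 had their exception in the same pair, replicate 3 of novelty with TSA. In that pair 3 of 22 Pcdhb genes were higher and the median was -0.20. At least 11 of 14 pairs were higher for 14 of 22 Pcdhb genes, 0 of 12 non-clustered genes and 3.93% of all genes. The widest pair was replicate 2 of caged TSA, with 21 of 22 Pcdhb genes higher and a median of 0.58.

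**Figure D3:**
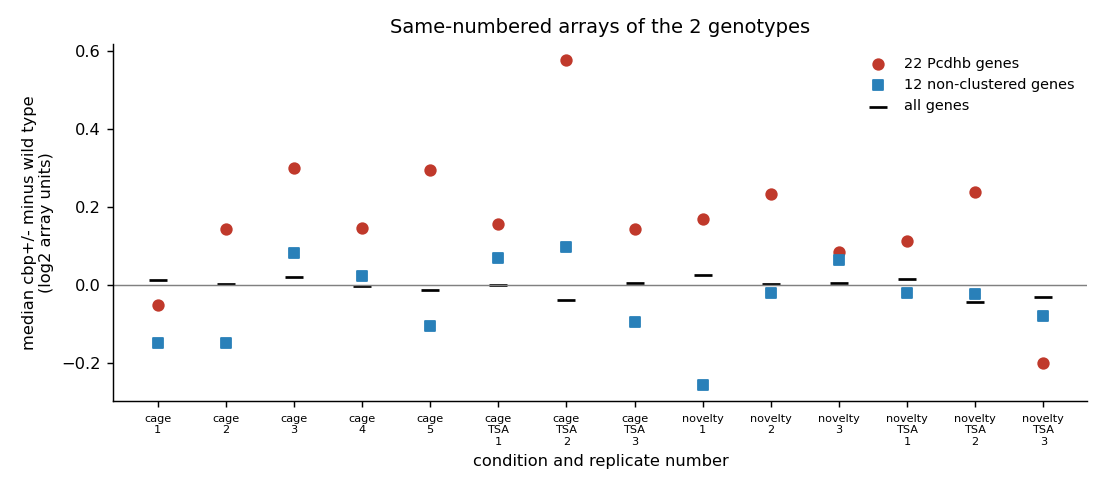
Median difference between the cbp+/- array and the wild-type array of the same number (log2 array units) in each of 14 pairs, for the 22 Pcdhb genes, the 12 non-clustered genes and all 19938 genes. The Pcdhb median is above 0 in 12 pairs and below it in cage control 1 and novelty TSA 3.

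Along the cluster the difference was larger among the first genes. The first 11 genes, Pcdhb1 to Pcdhb11, had a median of 0.20 over the 4 conditions, with a range of 0.16 to 0.43. The last 11, Pcdhb12 to Pcdhb22, had a median of 0.10, with a range of -0.09 to 0.19. The order held in controls, at 0.22 and 0.11, in novelty with vehicle, at 0.29 and 0.02, and in novelty with TSA, at 0.07 and -0.01. It did not hold with TSA in the cage, where the first 11 had a median of 0.23 and the last 11 a median of 0.26. These are descriptions of genes that vary together, and the difference between the ends of the cluster was not tested. None of 12 other genes measured on either side of the cluster and within it passed the threshold, and they lay between -0.08 and 0.11. Hars, a histidyl-tRNA synthetase gene before the cluster, stood at 0.11 ± 0.04 with the array set block (adjusted p = 0.164 in limma, unadjusted under 0.05), as high as some of the later Pcdhb genes, and its neighbour Hars2 at 0.08 ± 0.05. The others included Slc25a2 at 0.02 and Taf7 at 0.04, which lie between Pcdhb and Pcdhg genes, and Hdac3, a histone deacetylase gene beyond the cluster, at 0.00. The row shared by 14 Pcdha symbols differed by 0.03, with 6.31 to 7.07 in cbp+/- mice and 6.31 to 7.10 in wild type.

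**Figure D4:**
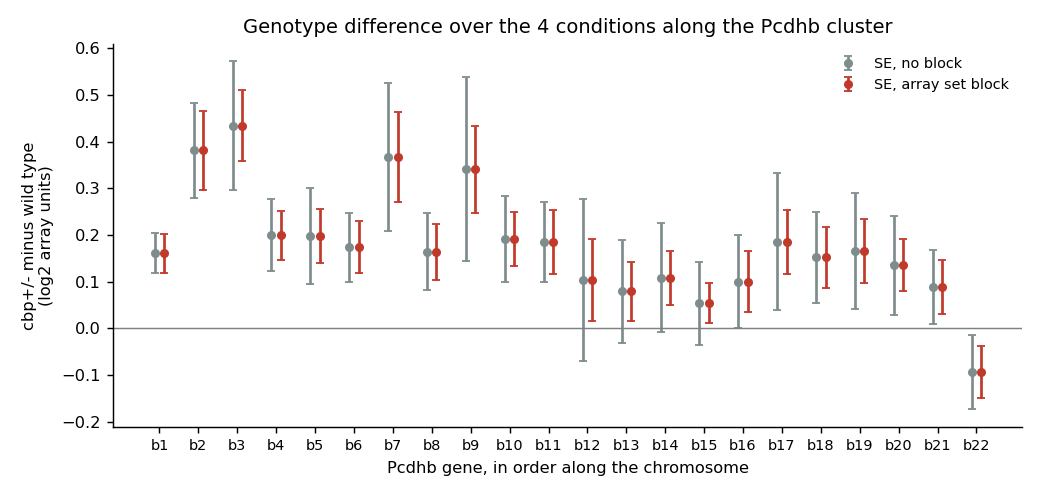
Genotype difference over the 4 conditions (log2 array units) for the 22 Pcdhb genes in their order along the chromosome, with bars for the SE without a block (grey) and with the array set block (red). Genes 1 to 11 lie between 0.16 and 0.43, and Pcdhb22 at the end lies at -0.09.

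The Pcdhb genes also moved together between arrays of 1 group. Deviations from the group means correlated at a median of 0.65 over the 231 pairs of Pcdhb genes, at 0.20 over the 66 pairs of non-clustered genes and at 0.01 over all pairs of genes, across 28 arrays that share platform and normalization. After removal of the array set these were 0.47, 0.17 and 0.01. The Pcdhb level of the 4 naive arrays stood 0.16 to 0.40 above the mean of all arrays, that of set 2 at -0.34 to 0.03, that of set 3 at -0.27 to 0.05 and that of set 4 at -0.04 to 0.39. The block took the median residual SD of the Pcdhb genes to 0.17 from 0.28. Because the genes move together, their counts are not those of 22 independent genes.

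Non-clustered protocadherins lay on both sides of 0 for genotype, and none passed the threshold. Pcdh15, a cadherin of the tip links of inner-ear hair cells, was the lowest in cbp+/- mice at -0.14 ± 0.05 with the array set block (SE, adjusted p = 0.255). It lay between 5.50 and 6.23 with a median of 6.09 in cbp+/- mice, and between 5.84 and 6.39 with a median of 6.13 in wild type. The ranges overlapped widely, and the second row of Pcdh15 differed by -0.15. Pcdh11x, an X-linked member, was the highest at 0.12 ± 0.05 (adjusted p = 0.352), with 6.50 to 6.95 in cbp+/- mice and 6.15 to 7.06 in wild type. For single conditions the values are given with the SE without a block. In controls the lowest were Pcdh10, a delta-protocadherin of forebrain axons, at -0.16 ± 0.12, Pcdh7 at -0.14 ± 0.13 and Pcdh15 at -0.14 ± 0.13. In caged TSA mice they were Pcdhb22 at -0.12 ± 0.17, Pcdh15 at -0.12 ± 0.16 and Pcdh12, a protocadherin of endothelium, at -0.09 ± 0.19. In novelty with vehicle Pcdhb22 at -0.18 ± 0.17, Pcdh18 at -0.13 ± 0.10 and Pcdhb14 at -0.10 ± 0.25 were lowest. Pcdh18 read 4.95, 5.16 and 5.11 in cbp+/- mice and 5.22, 5.23 and 5.17 in wild type without overlap, as 1.34% of all genes did in that direction. In novelty with TSA Pcdh15 stood at -0.24 ± 0.16, Pcdh1 at -0.22 ± 0.28 and Pcdh10 at -0.13 ± 0.15. With the array set block the SE in this condition was 0.11 for Pcdh15 and 0.09 for Pcdh1. Both were then lower at an unadjusted p under 0.05 in limma, 2 of 12 genes against 4.76% of all genes. Pcdh11x was higher at that level, 1 of 12 genes against 3.1% of all genes.

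The remaining non-clustered genes had means within 0.1 of each other in the genotypes over the 4 conditions, and their arrays overlapped widely. Pcdh10 differed by -0.08 ± 0.05, with 7.65 to 8.30 and a median of 8.06 in cbp+/- mice against 7.69 to 8.39 and a median of 8.10 in wild type. Pcdh9 differed by -0.05 ± 0.05, with -0.05 on its second row, and had 9.44 to 10.10 in cbp+/- mice and 9.44 to 10.30 in wild type. Pcdh17 differed by 0.00 ± 0.05, with 8.30 to 8.88 in cbp+/- mice and 8.09 to 9.05 in wild type. Pcdh19, the gene of a female-limited epilepsy in humans, differed by -0.04 ± 0.05 with 7.51 to 8.16 in cbp+/- mice and 7.39 to 8.14 in wild type. Pcdh20 differed by 0.03 ± 0.04, Pcdh7 by -0.03 ± 0.05, Pcdh18 by -0.02 ± 0.04, Pcdh8 by -0.02 ± 0.05, Pcdh1 by -0.06 ± 0.04 and Pcdh12 by 0.03 ± 0.07 (SE, array set block). None of these had an unadjusted p under 0.05.

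TSA arrays had lower means of the Pcdhb genes and slightly higher means of most non-clustered genes, none past the threshold. Over both genotypes and housings, 12 TSA arrays were set against 16 without TSA. All 22 Pcdhb genes lay below 0 without a block, with a median of -0.15, and 21 of 22 lay below 0 with the array set block, with a median of -0.07. By background the median with that block was -0.015 in caged and -0.143 in novelty cbp+/- mice. In wild type it was -0.114 in caged and -0.015 in novelty mice. The 16 arrays without TSA include the 4 naive arrays, which stand high for Pcdhb genes, and without these the median was -0.07. The array set block already sets the naive arrays apart, so this value is not a second check. All genes had a median of 0.01 without a block. Called were 0 of 34 protocadherins and 0.662% of all genes, or 4.51% of all genes with the array set block. At an unadjusted p under 0.05 without a block 4 Pcdhb genes were lower, against 4.18% of all genes, and with the array set block 6 Pcdhb genes, against 7.24% of all genes, while 2 non-clustered genes were higher, against 8.63%. All 11 choroid plexus markers lay above 0 with TSA, with a median of 0.12, and without the 3 arrays with raised markers the Pcdhb median was -0.14.

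Pcdhb16 was among the lowest with TSA, at -0.28 ± 0.10 without a block and -0.21 ± 0.07 with the array set block (adjusted p = 0.306 and 0.0914). It had 5.91 to 6.97 with a median of 6.44 on TSA arrays, against 6.31 to 7.15 with a median of 6.70 on arrays without TSA. With the array set block its TSA difference was below 0 in each of the 4 backgrounds, at -0.17 in caged and -0.20 in novelty cbp+/- mice, and -0.11 in caged and -0.35 in novelty wild-type mice. Pcdhb1 differed by -0.13 ± 0.04 without a block and -0.14 ± 0.04 with it (adjusted p = 0.269 and 0.0803). Its TSA arrays ran from 3.84 to 4.26 with a median of 4.19, against 3.93 to 4.58 with a median of 4.32 without TSA. Leaving out 1 array took the adjusted p with the block to 0.0328 at the lowest for Pcdhb1 and to 0.0123 for Pcdhb16. The mean of Pcdhb1 was lower with TSA in 3 backgrounds and 0.14 ± 0.09 higher in wild-type novelty mice. Taking each TSA array with the array without TSA of its genotype, housing and set, the Pcdhb median was below 0 in 8 of 12 pairs.

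**Figure D5:**
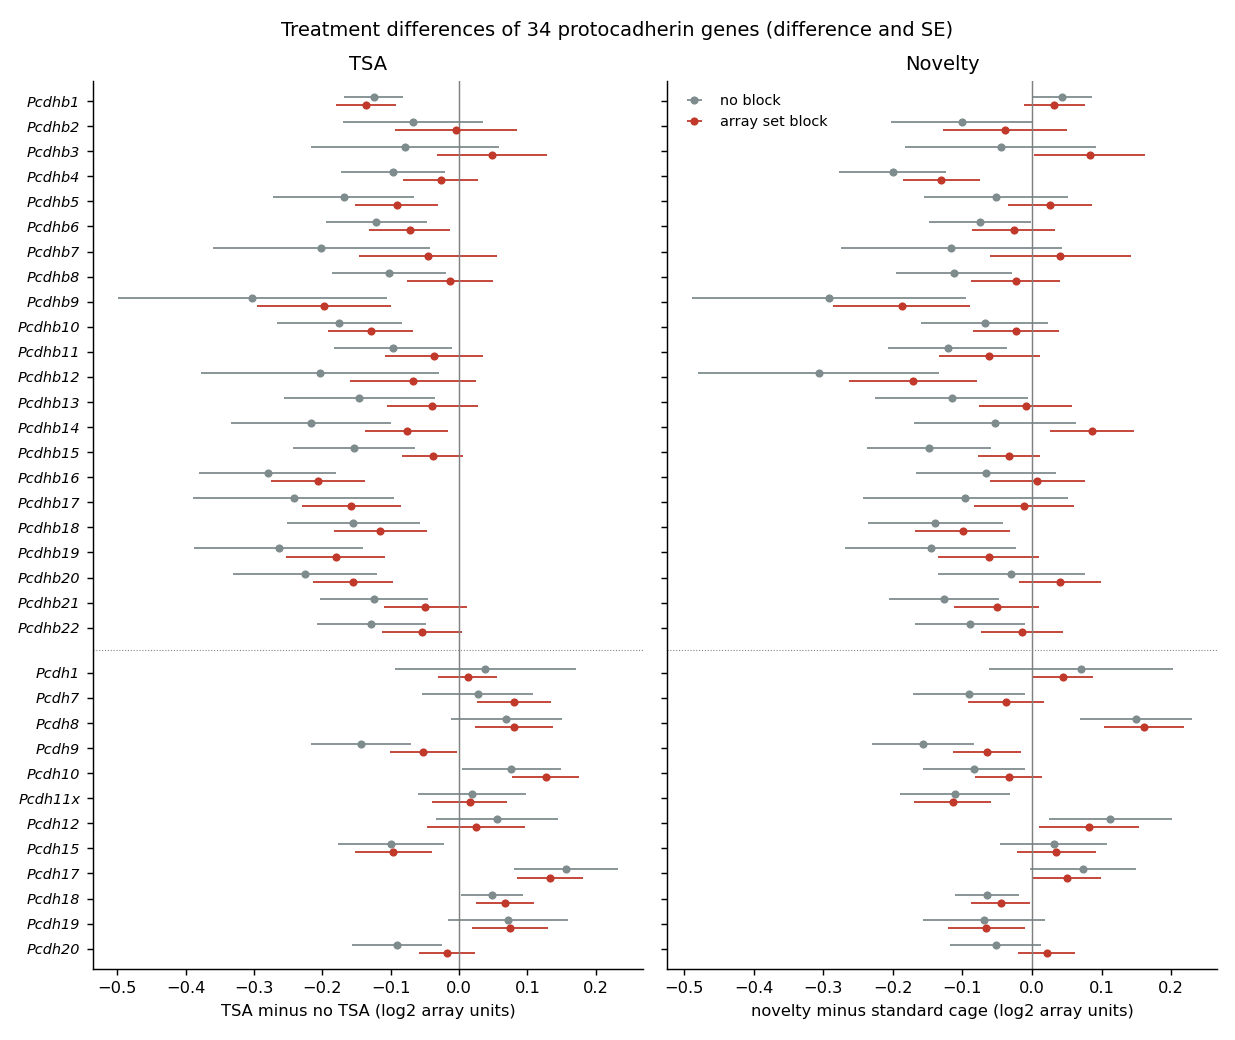
Difference with TSA (left, 12 against 16 arrays) and with novelty (right, 12 against 16 arrays) for the 34 protocadherin genes, in log2 array units with SE bars, without a block (grey) and with the array set block (red). With TSA the Pcdhb genes lie left of 0 without a block. Most lie closer to 0 with the block, where Pcdhb3 lies right of 0 and Pcdhb1 slightly further left. Pcdh17 and Pcdh10 with TSA and Pcdh8 with novelty lie right of 0.

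Among the non-clustered genes Pcdh17, a delta-protocadherin of basal ganglia and limbic circuits, was the highest with TSA, at 0.13 ± 0.05 with the array set block (adjusted p = 0.135). Its TSA arrays had 8.37 to 9.05 with a median of 8.67, against 8.09 to 8.72 with a median of 8.53 without TSA. Pcdh10 differed by 0.13 ± 0.05 with the block (adjusted p = 0.161) and by 0.08 ± 0.07 without it, with medians of 8.08 on TSA arrays and 8.07 on the others. In all 9 of 12 non-clustered genes were above 0 with TSA, with a median of 0.04 without a block and 0.05 with it. Neither gene passed the threshold with any single array left out, where the lowest adjusted p of Pcdh17 was 0.0576.

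Novelty gave no protocadherin past the threshold either, whereas 0.191% of all genes were called and 0.476% with the array set block, nearly all of them higher. Npas4, an activity-induced transcription factor, marked the exposure with 6.90 to 8.14 on the 12 novelty arrays against 5.23 to 6.49 on the 16 standard cage arrays, as did Fos with 6.35 to 7.41 on novelty arrays against 4.98 to 5.89 on standard cage arrays. Pcdh8, also known as arcadlin and known in rat neurons as an activity-induced protocadherin that promotes the removal of N-cadherin from synapses, was the highest member. It differed by 0.15 ± 0.08 without a block and 0.16 ± 0.06 with the array set block (SE, adjusted p = 1 and 0.344). With the block it was the only member higher at an unadjusted p under 0.05, against 4.36% of all genes. The 12 novelty arrays had 6.28 to 6.91 with a median of 6.64, and the 16 standard cage arrays had 5.97 to 6.84 with a median of 6.43.

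For Pcdh8 the novelty difference was larger in the mice without TSA. After novelty with vehicle cbp+/- mice read 6.90, 6.68 and 6.46, against 6.33, 6.34, 6.67, 6.42 and 5.97 in their cage controls. Wild-type mice read 6.67, 6.74 and 6.63, against 6.45, 6.50, 6.40, 6.44 and 6.19, with no overlap, as 0.838% of all genes did in that direction. With the array set block these were differences of 0.36 ± 0.11 in cbp+/- mice and 0.30 ± 0.11 in wild type. Under TSA, novelty gave -0.02 ± 0.11 in cbp+/- mice and 0.01 ± 0.11 in wild type. The caged TSA arrays were themselves high, with 6.81, 6.73 and 6.25 in cbp+/- mice and 6.84, 6.62 and 6.35 in wild type, and exceeded the cage controls by 0.27 ± 0.11 and 0.23 ± 0.11. These comparisons share arrays, and whether the novelty difference depends on TSA was not tested. Of the 12 novelty arrays 10 exceeded the cage array of the same genotype, drug and set for Pcdh8.

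Upstream sequences are shown for Pcdh8, Pcdh10 and Pcdh17, the non-clustered genes that stood highest with novelty or TSA. They are the 250 bases before the RefSeq transcription start in assembly GRCm38.p6, written 5′ to 3′ along the gene. Pcdh8 is at chr14:79771313-79771562 on the minus strand, Pcdh10 at chr3:45378148-45378397 on the plus strand and Pcdh17 at chr14:84443313-84443562 on the plus strand. Capitals mark TGACG or its reverse complement CGTCA, the half-site of the cyclic AMP response element that CREB binds, and TATAAA or its reverse complement TTTATA, the TATA box.
Pcdh8: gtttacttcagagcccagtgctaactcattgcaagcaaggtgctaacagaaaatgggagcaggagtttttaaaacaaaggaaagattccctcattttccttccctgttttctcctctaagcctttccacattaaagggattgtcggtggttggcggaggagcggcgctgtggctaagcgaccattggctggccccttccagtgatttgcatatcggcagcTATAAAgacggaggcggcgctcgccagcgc
Pcdh10: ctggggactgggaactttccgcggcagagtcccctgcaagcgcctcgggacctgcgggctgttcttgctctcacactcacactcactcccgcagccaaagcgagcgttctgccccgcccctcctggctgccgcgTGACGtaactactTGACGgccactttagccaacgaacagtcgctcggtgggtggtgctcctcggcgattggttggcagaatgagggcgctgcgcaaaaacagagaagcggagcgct
Pcdh17: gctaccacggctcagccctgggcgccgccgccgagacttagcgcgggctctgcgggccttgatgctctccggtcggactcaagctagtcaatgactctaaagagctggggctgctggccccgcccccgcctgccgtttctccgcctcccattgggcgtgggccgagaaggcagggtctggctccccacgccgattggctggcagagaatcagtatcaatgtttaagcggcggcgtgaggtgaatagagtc
The Pcdh8 window holds 1 TATA box and no half-site, that of Pcdh10 holds 2 half-sites and that of Pcdh17 holds neither. Of the 32851 upstream windows of RefSeq genes, 17.8% hold the half-site and 12.4% the TATA box on either strand. These shares are over all windows, whereas each member was counted by its first window only. Among 9 non-clustered members with a window, 2 hold the half-site (Pcdh10 and Pcdh9) and 2 the TATA box (Pcdh15 and Pcdh8). The full element TGACGTCA is in none of the 9 and in 1.5% of all windows.

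No Pcdhb gene passed the threshold for novelty. Without a block 21 of 22 lay below 0, with a median of -0.11, but with the array set block 15 of 22 did, with a median of -0.02. Pcdhb4 was the lowest by p, at -0.20 ± 0.08 without a block and -0.13 ± 0.05 with it (SE, adjusted p = 1 and 0.5). Its novelty arrays had 5.85 to 6.38 with a median of 6.25, against 5.98 to 6.84 with a median of 6.45 in the standard cage. At an unadjusted p under 0.05, 1 Pcdhb gene was lower in either fit, compared with 1.31% of all genes without a block and 3.85% with it. Pcdh9, a non-clustered gene of cortical and hippocampal neurons, stood at -0.16 ± 0.07 without a block and -0.07 ± 0.05 with it.

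Whether the genotype difference depended on novelty or on TSA was tested as an interaction. Neither gave a protocadherin past the threshold, and 0% of all genes passed without a block and with the array set block. The genotype by novelty interaction of the Pcdhb genes had a median of -0.14, with 18 of 22 below 0, where all genes had a median of -0.01. All 11 choroid plexus markers lay below 0 in this interaction too, with a median of -0.42, and their part in it was not tested. The lowest was Pcdhb10 at -0.35 ± 0.12 (array set block, adjusted p = 0.916). The genotype by TSA interaction had a median of 0.00 with 11 of 22 above 0, and Pcdhb1 at -0.19 ± 0.08 had the smallest p (adjusted p = 0.607). At an unadjusted p under 0.05 with the array set block 2 Pcdhb genes were lower in the first interaction and 1 was lower and 1 higher in the second, against 2.8%, 5.07% and 3.02% of all genes.

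Ctcf fell and Rest rose with TSA among genes that act on the clusters. Of 18 regulators of clustered protocadherin promoters with a row, 0 passed the threshold for genotype with or without the array set block, and 16 lay above 0 with a median of 0.08, where 46.1% of all genes lay above 0. The list was chosen with earlier results of these data known. Its genes were read on the same arrays, and a genotype difference of the list as a whole was not tested. With TSA 2 of 18 passed without a block, with a median of -0.04 over the list, where 0.446% of all genes were called higher and 0.216% lower. Ctcf, the gene of the insulator protein, was lower at -0.32 ± 0.06 (adjusted p = 0.00593), and Rest, a repressor of neuronal genes, was higher at 0.57 ± 0.09 (adjusted p = 0.000877). Under the array set block Stag1, a cohesin subunit gene, was lower too, at -0.21 ± 0.05 (adjusted p = 0.0185), which made 3 of 18, where 2.66% of all genes were called higher and 1.85% lower. Of 23 genes of protocadherin signalling and processing, such as Fyn, Ptk2 and Adam10, 0 passed for genotype, novelty or TSA in either fit.

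Among 37 other cadherin superfamily genes none passed without a block. In the fit with the array set block Cdh13, a GPI-anchored cadherin, was lower in cbp+/- mice at -0.28 ± 0.05 (adjusted p = 0.00267), 1 of 37 genes where 0.502% of all genes were called lower. The atypical cadherins Fat1 at 0.27 ± 0.05 and Fat4 at 0.24 ± 0.05 were higher with TSA (adjusted p = 0.000635 and 0.00489). These are 2 of 37 genes, where 2.66% of all genes were called higher, and whether the shares differ was not tested. The list had a median genotype difference of -0.01 over the 4 conditions with 14 of 37 above 0, where the Pcdhb genes had a median of 0.16 with 21 of 22 above 0.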

How the data were processed

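The 28 arrays (Affymetrix Mouse Gene 1.0 ST) hold pooled hippocampal RNA and were put in 8 groups by their titles. Each deposited value is on a log2 scale. The authors used GeneSpring GX 11 according to the labels' protocols, and RMA normalization per the submitters' processing notes, which hides a shift shared by most genes. The labels do not say how independent the pools are, so p-values measure the spread between arrays, and the number of arrays limits the precision.

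Of 35556 deposited rows, 21789 had 1 symbol in the platform's gene table, 1621 several and 12146 none. Keeping the row with the highest mean left 19938 genes. RefSeq tables (GRCm38.p6) matched all 34 members and gave names, gene order and upstream sequences.

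One limma 3.58.1 model in R 4.3.3 held the 8 group means of all arrays, with two-sided tests, Benjamini-Hochberg adjustment over all genes in each of 9 comparisons, and a threshold of 0.05. It was tested on simulated data. Whether the label numbers pair arrays was judged from the values of these same arrays. Deviations from group means had correlations of 0.44 to 0.70 in the 14 same-numbered genotype pairs and of -0.58 to 0.51 in 38 other pairs, so blocked fits are given. Array set 1 is the naive arrays, and sets 2 to 4 join vehicle controls 3, 4 and 5 to replicates 1, 2 and 3 of the other groups. No label names these sets.

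Members, lists and array sets were chosen with earlier results of these data known. The rule for named genes took members past the threshold, up to 3 differences in each direction per genotype comparison of 1 condition with arrays that do not overlap coming first, and a fixed set of non-clustered members. Of other genes it took Crebbp, Npas4, Fos and up to 4 called genes per list. Pcdhb4, Pcdhb5, Pcdhb16, the cluster's neighbours and the choroid plexus arrays were singled out after their values were seen. The pair block, and the array set block with arrays or sets left out, were added after seeing the data.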

Additional observations from a re-analysis of the deposited data

Results flagged for a closer look

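Among the 68 control groups of the 34 protocadherins, 1 array stood apart from the others of its group. Pcdh10 read 7.65 on replicate 5 of the cbp+/- cage controls, whereas the other 4 arrays of that group lay between 8.07 and 8.21. The gap to the nearest array was 0.754 of the whole range of the group. Chance flags about 1 in 20 groups where the groups are independent. The 34 genes share the same control arrays, so these groups are not independent, and the count was not tested against that rate. This array also lowers the mean of Pcdh10 in the cbp+/- controls.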

How the results depend on the processing

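No protocadherin passed the threshold in any of the 9 comparisons without a block, with the label number as a replicate block, without naive arrays, with the compared arrays alone, without the 3 choroid-raised arrays, with an intensity trend, array weights, repeated quantile normalization, without dim genes, with the mean over the rows of a gene, or with any single array left out. Settings that changed a count all used a block. For genotype over the 4 conditions the array set as a replicate block gave 2 protocadherins and the same-numbered pairs as a replicate block gave 2. With the array set block, leaving out set 1 gave 2, set 2 gave 1, set 3 gave 0 and set 4 gave 2, and leaving out the choroid-raised arrays gave 3. Leaving out single arrays with that block gave 1 to 5, with Pcdhb3 in each of the 28 fits and 5 without replicate 3 of the cbp+/- novelty TSA group. For TSA it gave 0 to 1, the 1 being Pcdhb1 without replicate 1 of wild-type caged TSA or of wild-type novelty vehicle, and Pcdhb16 without replicate 3 of wild-type caged TSA or replicate 2 of cbp+/- caged TSA. The counts of all genes moved as well. For genotype over the 4 conditions these were 0 without a block, 132 with the array set block and 53 with the pair block, for novelty 38 and 95, and for TSA 132 and 899 without and with the array set block. The block changed no other call of a named member. The Pcdhb median for genotype in novelty with vehicle was -0.02 without replicate 3 of the cbp+/- group (no block), and in novelty with TSA it was -0.04 without replicate 2 of the cbp+/- group (array set block). Pcdhb2 and Pcdhb3 stayed higher in cbp+/- mice over the 4 conditions with any single array or set left out, while their calls depended on the setting. The cause of these changes was not tested.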
